A study of Arabidopsis thaliana with 6 samples.

Results

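A set of 10 genes of chlorophyll breakdown and leaf senescence were followed in 6 Arabidopsis thaliana plants, chosen by locus identifier from the 33602 loci of the count files. All 10 loci were found. 5 of them act on chlorophyll or its products (SGR1, SGR2, NYC1, PPH and PAO) and 5 are widely used senescence-associated genes (SAG12, SAG13, SAG21, SWEET15 and BFN1). The 3 wild-type plants (numbers 22, 23 and 24) and the 3 isogenic msh1 memory plants (31, 32 and 33) were all of the Columbia-0 accession, received no treatment named in the labels, and were frozen as whole plants at early bolting; an age in days is not given in the sources used here. As background, MSH1 is a nuclear gene whose protein acts on organelle genomes, and a memory line descends from MSH1-suppressed parents, has lost the suppressing transgene and still shows a changed phenotype. All 6 plants had 2 days of stratification at 4 °C and grew at 22 °C under light of 120 to 150 micromoles per square metre per second. Each plant was sequenced as 1 library, and whether the 3 memory plants share a parent is not given. The comparison asks whether transcripts of these genes differ between the memory line and wild type.

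Chlorophyll is taken apart in a fixed order when leaves age. Chlorophyll b is first reduced by NYC1 and NOL and then by HCAR to chlorophyll a, the SGR proteins remove the central magnesium, PPH cuts off the phytol tail, and PAO opens the ring and so ends the green colour. RCCR and later enzymes turn the product into colourless compounds that are stored in the vacuole. The senescence-associated genes are not part of this route: SAG12 encodes a cysteine protease, SAG13 a short-chain reductase, SAG21 a late embryogenesis abundant protein found in mitochondria, SWEET15 a sucrose exporter and BFN1 a nuclease of dying cells.

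Library totals ranged from 4060216 to 5806617 counts, and 16928 genes had enough reads for the test. Levels are counts per 1000000 counts of the library (CPM) scaled by the trimmed mean of M values (TMM), and 1 read stood for 0.174 to 0.231 CPM. MSH1 itself averaged 14.1 ± 2.94 CPM in the wild-type plants against 14.2 ± 2.34 CPM in the memory group (SD, n = 3 each; adjusted p = 0.991 in edgeR). Wild-type plant 23 stood apart: its Pearson correlation of log2 CPM across genes with plants 22 and 24 was 0.945 and 0.933, against 0.973 between those plants and 0.970 to 0.976 among memory plants. Of 5 green leaf markers, all were abundant, and they summed to 30822 to 39948 CPM in wild-type plants, against 30761 to 36333 CPM in the memory group. Of 5 root markers, EXPA7, IRT1 and PRP3 had no read in any plant and CASP1 had 1 read in all, although the labels name whole plants; the fifth, PYK10, had 20.7, 0.193 and 17.8 CPM in plants 22, 23 and 24. In bulk tissue, fewer cells of a type and less RNA per cell cannot be told apart.

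SGR1 and SGR2 are paralogs whose values lay in opposite directions, although neither passed the test, and SAG21 was the only member called. The 250 bases before the annotated start of these 3 genes are shown. They are from RefSeq's TAIR10.1 assembly, written 5′ to 3′ towards the gene, and capitals mark motif matches.
SGR1, chromosome 4, chr4:12018644-12018893, minus strand: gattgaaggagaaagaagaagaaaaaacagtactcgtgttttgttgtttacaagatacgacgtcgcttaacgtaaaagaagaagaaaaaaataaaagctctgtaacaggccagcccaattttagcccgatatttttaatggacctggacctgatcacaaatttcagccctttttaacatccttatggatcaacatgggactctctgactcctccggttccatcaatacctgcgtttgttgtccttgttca
SGR2, chromosome 4, chr4:7155900-7156149, plus strand: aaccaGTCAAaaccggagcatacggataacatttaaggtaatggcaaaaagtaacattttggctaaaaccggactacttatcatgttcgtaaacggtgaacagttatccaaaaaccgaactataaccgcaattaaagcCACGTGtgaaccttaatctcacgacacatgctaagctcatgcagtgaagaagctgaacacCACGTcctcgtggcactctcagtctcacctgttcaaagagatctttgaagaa
SAG21, chromosome 4, chr4:1047106-1047355, minus strand: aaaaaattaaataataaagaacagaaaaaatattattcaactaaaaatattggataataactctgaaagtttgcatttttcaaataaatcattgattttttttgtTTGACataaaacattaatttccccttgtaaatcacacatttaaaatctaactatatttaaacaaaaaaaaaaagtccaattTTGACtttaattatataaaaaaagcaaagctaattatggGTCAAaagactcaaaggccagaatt
The motifs searched on both strands were the abscisic acid response core ACGTG, the G-box CACGTG, which contains that core, the W-box core TTGAC, the evening element core AATATCT and the EIN3 site core ATGTA. The SGR2 window held a G-box 112 bases before the start, a further ACGTG core at 52 bases and a W-box core at 245 bases. The SAG21 window held 3 W-box cores, at 145, 64 and 25 bases, and the SGR1 window held none of the 5 motifs. Of 16916 windows of tested genes, 7.5% held a G-box, 23.3% the ACGTG core, 44.4% a W-box core, 10.2% the evening element core and 51.5% the EIN3 core. Over the 10 members, 1 held a G-box, 3 the ACGTG core, 6 a W-box core, 2 the evening element core and 5 the EIN3 core. These are letter matches only.

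Of the 10 members, 8 had enough reads to be tested, 1 fell in memory plants, none rose, and 7 did not pass. The call was SAG21. Over all 16928 tested genes 1.82% were called, 1.37% lower and 0.449% higher (edgeR quasi-likelihood test, Benjamini-Hochberg adjusted p under 0.05). Of the 8 tested members 7 had negative fold changes, with a median log2 fold change of -0.40, where 8267 of all 16928 tested genes were negative and the median was 0.0079. Without wild-type plant 23 the same count of 1 lower and 0 higher was found, while the share called over all genes rose to 5.93%. In that fit the log2 fold changes were 0.56 (SGR1), -0.63 (SGR2), -0.048 (NYC1), -0.19 (PPH) and 0.092 (PAO), so PAO turned positive. SAG13, SAG21 and SWEET15 stood at -0.61, -1.39 and -0.033. BFN1, which had enough reads only for some of the fits, was tested in this one and stood at 2.21 (SE 0.834, edgeR adjusted p = 0.146). With all 6 plants, 3 of the 8, SGR1, SGR2 and SAG21, stood at an unadjusted edgeR p under 0.05, beside 12.8% of all genes.

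**Figure D1:**
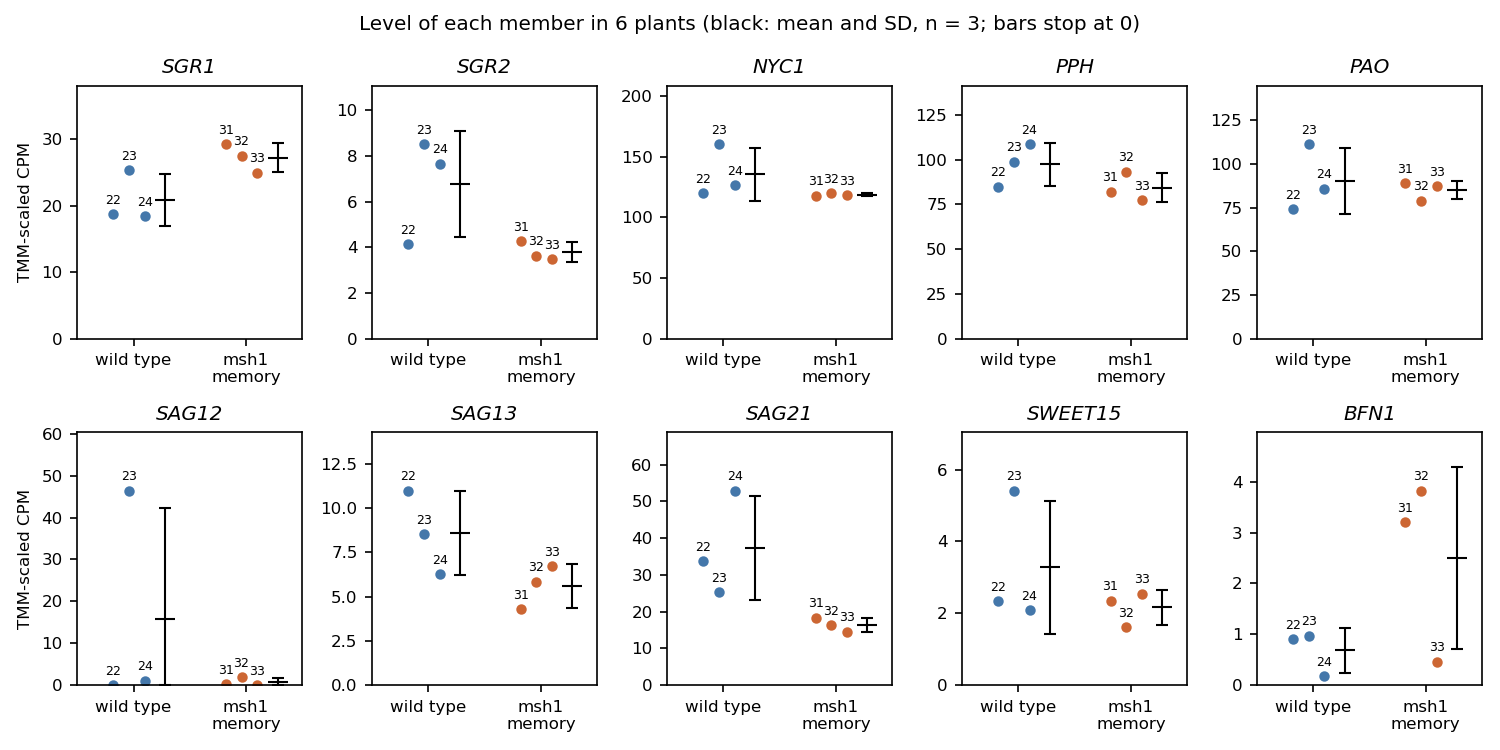
TMM-scaled CPM of the 10 genes in each plant, with plant numbers beside the points and the mean and SD of each group in black. SAG21 shows groups that do not overlap, and SAG12 is high in wild-type plant 23 alone at 46.4 CPM. NYC1 lies between 117.7 and 120.1 CPM in memory plants and is highest in wild-type plant 23 at 160.3 CPM.

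The first step acts on chlorophyll b. NYC1, the chlorophyll b reductase (AT4G13250, chromosome 4, 7684156 to 7687006 in TAIR10.1), stood at 119.7, 160.3 and 126.5 CPM in wild-type plants 22, 23 and 24 and at 117.7, 120.1 and 118.1 CPM in memory plants 31, 32 and 33. The groups overlapped, and the wild-type plants were more spread (135.5 ± 21.7 CPM) than the memory plants (118.7 ± 1.26 CPM; SD, n = 3 each). The log2 fold change, memory minus wild type throughout, was -0.19 (standard error, SE, 0.147, 95% interval from -0.51 to 0.13; adjusted p = 0.650 in edgeR), so a fall of more than 0.51 lay outside the interval. Without plant 23 it was -0.048, and with library totals -0.12. NOL, the second subunit of this reductase, was at 19.7 ± 1.38 and 19.3 ± 2.13 CPM (SD, n = 3 each; adjusted p = 0.974 in edgeR; named after its values were seen).

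HCAR, which completes the return from chlorophyll b to chlorophyll a (AT1G04620, chromosome 1, 1282163 to 1286619), fell. It had 22.3, 21.8 and 27.7 CPM in wild-type plants and 11.8, 9.86 and 9.02 CPM in memory plants. Every memory plant was below every wild-type plant. The mean went from 23.9 ± 3.24 to 10.2 ± 1.40 CPM (SD, n = 3 each), and the log2 fold change came to -1.23 (SE 0.196; adjusted p = 0.00846 in edgeR), and without memory plant 31, 32 or 33 the adjusted p was 0.0559, 0.0660 and 0.0808. Per kb of transcript, HCAR stood at 0.167, 0.122 and 0.196 of the NYC1 level in wild-type plants and at 0.0894, 0.0735 and 0.0683 in memory plants, a ratio formed after the values were seen that follows from the fall of HCAR and is given with no test. HCAR is no member and comes from a list of 13 other breakdown genes, described after PAO.

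The magnesium is removed by the SGR proteins, also called STAY-GREEN or NYE, and the values of the paralogs lay in opposite directions. SGR1, the main form in senescing leaves (AT4G22920, chromosome 4, 12016420 to 12018643), had 18.7, 25.3 and 18.4 CPM in wild-type plants and 29.3, 27.6 and 25.0 CPM in memory plants. Plants 22 and 24 lay below all memory plants and plant 23 lay just above memory plant 33, so the groups overlapped. SGR2 (AT4G11910, chromosome 4, 7156150 to 7158047) had 4.14, 8.51 and 7.66 CPM in wild-type plants and 4.27, 3.62 and 3.47 CPM in memory plants. Here plants 23 and 24 lay above all memory plants and plant 22 within them.

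Neither SGR gene passed the test. The log2 fold change of SGR1 was 0.39 (SE 0.175, 95% interval from 0.0094 to 0.77; adjusted p = 0.377 in edgeR), and that of SGR2 was -0.83 (SE 0.352, 95% interval from -1.60 to -0.064; adjusted p = 0.343 in edgeR). SGR2 rested on 15 to 44 reads per plant. Without plant 23 SGR1 stood at 0.56 with an edgeR adjusted p of 0.0709, and SGR2 at -0.63. The ratio of SGR1 to SGR2, each per kb of its longest annotated transcript, was 3.44, 2.26 and 1.83 in plants 22, 23 and 24 and 5.21, 5.79 and 5.47 in plants 31, 32 and 33. All 3 memory plants lay above all wild-type plants in this ratio, which was formed after the values were seen and is given with no test.

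PPH, the pheophytin pheophorbide hydrolase (AT5G13800, chromosome 5, 4451733 to 4454813), had 84.8, 98.8 and 108.6 CPM in wild-type plants and 82.1, 93.3 and 77.4 CPM in memory plants. The groups overlapped, and the log2 fold change was -0.21 (SE 0.146, 95% interval from -0.53 to 0.11; adjusted p = 0.613 in edgeR), and -0.12 without plant 24. PAO, the ring-opening oxygenase (AT3G44880, chromosome 3, 16383595 to 16386344), had 74.1, 111.4 and 85.8 CPM against 88.9, 79.1 and 87.2 CPM. The memory plants lay within the wild-type range. The log2 fold change was -0.088 (SE 0.163, 95% interval from -0.44 to 0.27; adjusted p = 0.876 in edgeR), and it turned to 0.092 without plant 23, where the adjusted p was 0.779. Without plant 22 it was -0.21. PAO overlaps the neighbouring gene AT3G44870 in the annotation, which had no read in any plant.

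Of 13 other genes around chlorophyll breakdown, all tested, 1 fell (HCAR), none rose and 12 did not pass, with a median log2 fold change of -0.015. The adjusted p of those 12 was at least 0.546. Without plant 23, where 5.93% of all genes were called, HCAR was called lower and 2 others were called higher. These were SGRL at 0.44 and BCM2 at 0.49 (edgeR adjusted p = 0.0344 and 0.0219, both named after their values were seen). Without plant 24 they stood at 0.15 and 0.14 (edgeR adjusted p = 0.766 and 0.825), and with all 6 plants at 0.26 and 0.23. SGRL is another SGR-type gene and BCM2 belongs to a pair of thylakoid proteins that restrain chlorophyll breakdown. SGRL had 103.7, 135.5 and 91.9 CPM in wild-type plants and 131.0, 128.9 and 137.3 CPM in memory plants, so plant 23 lay among the memory plants as it did for SGR1.

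Of 19 chlorophyll synthesis genes, all tested, 1 fell, none rose and 18 did not pass, with a median log2 fold change of 0.031. The call was PORB (AT4G27440, chromosome 4, 13725546 to 13727440), a light-dependent protochlorophyllide oxidoreductase, with 1607, 1544 and 1659 CPM in wild-type plants and 728.5, 822.1 and 593.4 CPM in memory plants. The groups did not overlap, and the log2 fold change was -1.17 (SE 0.166; adjusted p = 0.00484 in edgeR); without memory plant 31 or 33 the adjusted p was 0.0661 and 0.0510. PORB overlaps AT4G27450, on the opposite strand, by its annotated end, so some reads may be shared. Without plant 23 the list again gave 1 lower and 0 higher.

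**Figure D2:**
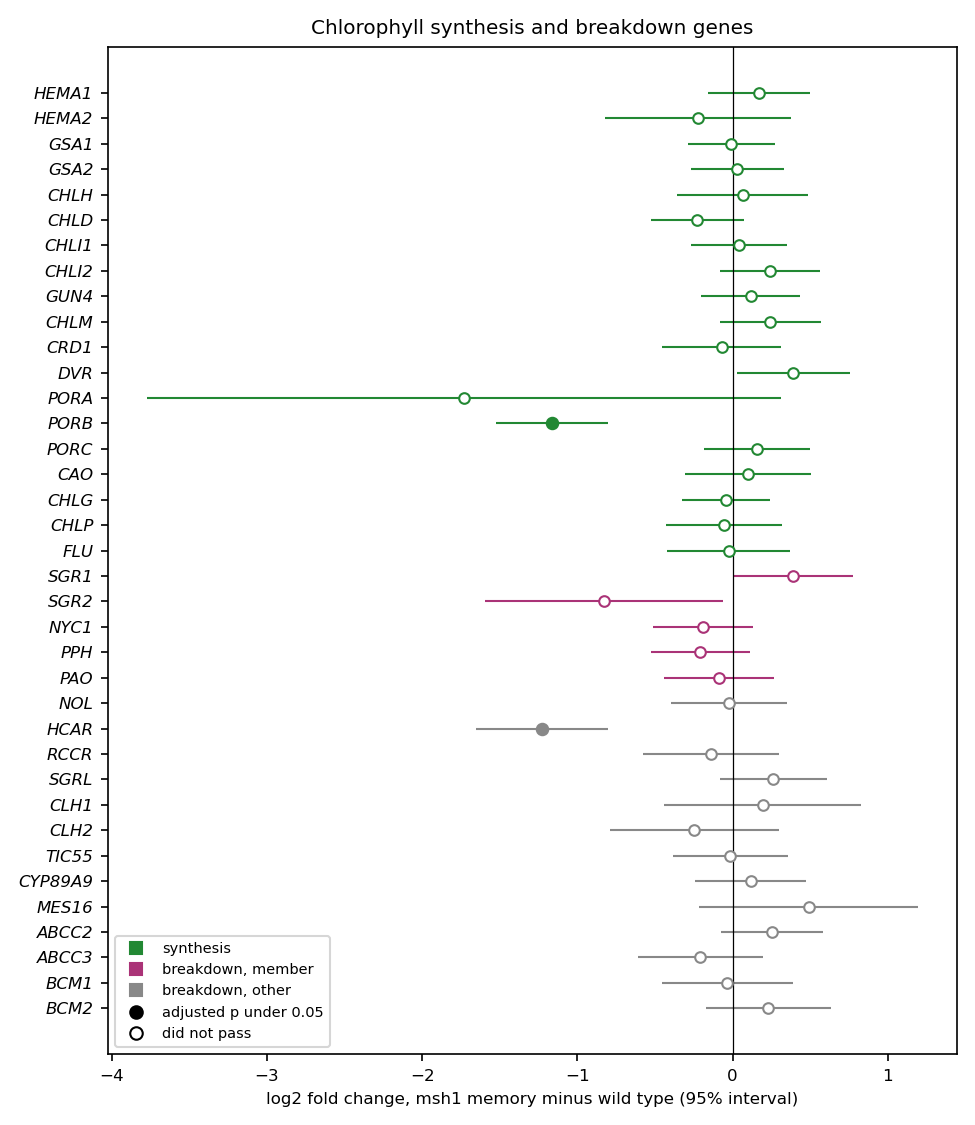
Log2 fold changes (memory minus wild type) of 19 chlorophyll synthesis genes, the 5 chlorophyll members and 13 other breakdown genes, with 95% intervals; filled points passed the threshold. HCAR at -1.23 and PORB at -1.17 are the filled points, and the intervals of the other breakdown genes include 0 except those of SGR1 and SGR2. Among the synthesis genes that did not pass, the interval of DVR, named after its values were seen, also leaves out 0 (0.028 to 0.76).

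SAG21 was the member that fell. SAG21 (also LEA5; AT4G02380, chromosome 4, 1046042 to 1047105) had 33.6, 25.3 and 52.9 CPM in wild-type plants, from 187, 131 and 304 reads, and 18.4, 16.3 and 14.6 CPM in memory plants, from 86, 81 and 63 reads. Every memory plant was below every wild-type plant, as in 10.2% of all tested genes, and plant 24 was the highest. The mean went from 37.3 ± 14.1 to 16.4 ± 1.91 CPM (SD, n = 3 each), and the log2 fold change came to -1.18 (SE 0.253, 95% interval from -1.74 to -0.63; adjusted p = 0.0434 in edgeR).

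The SAG21 call was close to the threshold. Its log2 fold change lay between -1.39 and -0.84 in 13 alternative fits and its adjusted p between 1.48e-04 and 0.239, with 5 of the 13 past the threshold. Without plant 23 the value was -1.39 (edgeR adjusted p = 1.48e-04) and without plant 24 it was -0.84 (edgeR adjusted p = 0.0647). Without plant 22, 31, 32 or 33 the adjusted p was 0.0856, 0.160, 0.223 and 0.239. The call also ended with library totals (0.0779), upper-quartile scaling (0.0576) and limma voom (0.0957). A microRNA gene of the TAIR10.1 annotation, AT4G04125, lies within the transcribed region of SAG21 on the same strand and is not counted separately here.

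**Figure D3:**
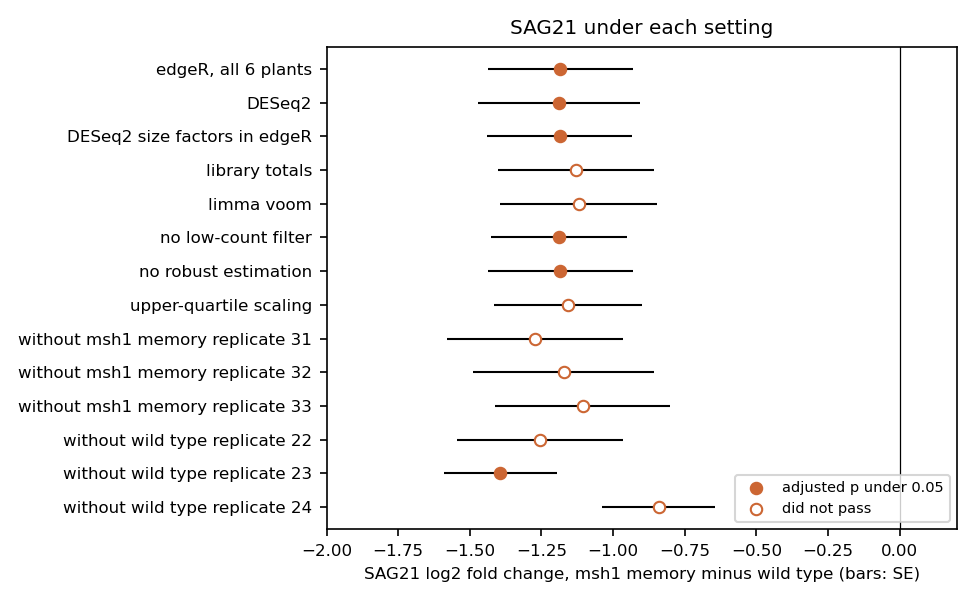
SAG21 log2 fold change (memory minus wild type) with its SE in the fit of all 6 plants and in 13 alternatives; filled points passed an adjusted p of 0.05. All values are negative, from -1.39 without plant 23 to -0.84 without plant 24.

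The SAG21 family has 3 other genes, and none passed with edgeR (1 at an unadjusted edgeR p under 0.05, beside 12.8% of all genes). AT3G53770 had no read in any plant. DI21, named after its values were seen, had 18.5, 3.09 and 17.1 CPM in wild-type plants and 16.0, 15.7 and 16.4 CPM in memory plants (adjusted p = 0.874 in edgeR). Its log2 fold change of 0.31 rested on the low value of plant 23, and without that plant it was -0.14 (edgeR adjusted p = 0.768). AT1G02820 had 19.8, 49.1 and 32.5 CPM in wild-type plants and 68.8, 57.3 and 72.6 CPM in memory plants. Its groups did not overlap, with every memory plant higher, as in 9.52% of all tested genes, and its log2 fold change was 0.97 (SE 0.283; adjusted p = 0.165 in edgeR). Without plant 23 it stood at 1.34 and passed (edgeR adjusted p = 4.10e-04), and it also passed with DESeq2 (adjusted p = 0.0177).

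The 5 genes nearest to SAG21 in pattern were chosen by the root mean square difference of log2 CPM, each gene centred on its mean over the 6 plants. SAG21 itself had a root mean square spread of 0.639 about its mean. AT1G72910, a gene with a TIR domain, differed from it by 0.098, and CPK28, a calcium-dependent protein kinase gene, by 0.132. AT1G26665, the senescence factor gene ORE1 (NAC6 in the annotation) and the fucosyltransferase gene FUT4 followed at 0.144, 0.150 and 0.156. All 5 were highest in plant 24, as SAG21 is, which the choice by likeness favours. For SGR1, with a spread of 0.254, the 5 nearest were APRL4 at 0.036, AT3G22210 at 0.048, AT2G36430 at 0.051, AT4G28740 at 0.055 and AT1G18060 at 0.056, and in all 5 plant 23 was the highest wild-type plant, as in SGR1 itself, which the choice by likeness again favours.

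SAG12, the protease gene that marks late leaf senescence (AT5G45890, chromosome 5, 18613239 to 18614963), was abundant in 1 plant. It had 240 reads (46.4 CPM) in wild-type plant 23, against 0 and 6 reads in wild-type plants 22 and 24 and 1, 9 and 0 reads in memory plants 31, 32 and 33. The next highest plant was memory plant 32 at 1.81 CPM. The 0 counts allow up to 0.54 CPM in plant 22 and 0.694 CPM in plant 33 (3 counts; counting error only). SAG12 fell below the low-count filter of the main test, and edgeR without a low-count filter gave an adjusted p of 0.660. Plant 23 is the library that stood apart, and without it the wild-type mean was 0.522 CPM beside 0.675 ± 0.989 CPM in memory plants (SD, n = 3).

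Plant 23 was also the highest of the 6 plants for SGR2, NYC1, PAO and SWEET15, and the highest wild-type plant for 7 of the 10 members. Its sum of green leaf markers, 39948 CPM, was the highest of the 6 plants, and its PYK10 value, 0.193 CPM from 1 read, the lowest. The part of these differences in the member values was not tested.

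SWEET15, also SAG29 (AT5G13170, chromosome 5, 4181042 to 4183354), had 2.34, 5.41 and 2.09 CPM in wild-type plants and 2.35, 1.61 and 2.54 CPM in memory plants, from 8 to 28 reads. Apart from plant 23 all plants lay together. The log2 fold change was -0.59 (SE 0.492, 95% interval from -1.66 to 0.48; adjusted p = 0.680 in edgeR), and -0.033 without plant 23. Of 6 related sucrose exporter genes of its clade (SWEET9 to SWEET14), 3 were tested and none passed with edgeR or DESeq2 (0 at an unadjusted edgeR p under 0.05), the smallest p being that of SWEET12 at 5.13 ± 1.03 and 3.16 ± 1.39 CPM (SD, n = 3 each; adjusted p = 0.515 in edgeR).

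SAG13 (AT2G29350, chromosome 2, 12600914 to 12602556) had 11.0, 8.51 and 6.26 CPM in wild-type plants and 4.27, 5.83 and 6.70 CPM in memory plants. The groups overlapped only through wild-type plant 24 and memory plant 33. The log2 fold change was -0.61 (SE 0.304, 95% interval from -1.28 to 0.048; adjusted p = 0.436 in edgeR), and -0.40 without plant 22, the highest plant.

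BFN1 (AT1G11190, chromosome 1, 3750066 to 3752780) was low in all plants. It had 5, 5 and 1 reads in wild-type plants and 15, 19 and 2 reads in memory plants, or 0.900, 0.967 and 0.174 CPM against 3.21, 3.82 and 0.462 CPM. Plants 31 and 32 were above all others, and plant 33 lay within the wild-type range. BFN1 was below the filter of the main test, and without a low-count filter edgeR gave a log2 fold change of 1.86 (SE 0.758; adjusted p = 0.325). Of 7 other markers of developmental cell death 3 were tested and none passed with edgeR or DESeq2 (0 at an unadjusted edgeR p under 0.05), the smallest p being that of the carboxypeptidase gene SCPL48 at 45.1 ± 4.48 and 37.3 ± 6.99 CPM (SD, n = 3 each; adjusted p = 0.556 in edgeR). As other sources of such cells, 5 xylem markers summed to 16.2 to 25.8 CPM in wild-type plants, against 16.7 to 24.3 CPM in the memory group, and 8 flower organ markers to 5.58 to 9.28 and 8.76 to 11.6 CPM. AP3 was the flower marker at 0 in every wild-type plant, with 4, 7 and 4 reads in memory plants 31, 32 and 33. SEP3 had 0, 0 and 10 reads in wild-type plants and 10, 8 and 20 reads in memory plants, and AMS 0, 1 and 0 against 8, 2 and 2 reads, while LAP6 had 19, 21 and 13 against 12, 10 and 8 reads (all 3 named after their values were seen). Of the 8 flower markers 2 had enough reads to be tested, and neither passed (smallest adjusted p = 0.629 in edgeR). Of these 2, 1 fold change was positive and 1 negative. PI, AG, A9 and SHP1, the remaining flower markers, enter the sums only. All 8 flower markers together had 31, 48 and 40 reads in wild-type plants and 41, 53 and 50 reads in memory plants. The summed reads of PI, AG, A9 and SHP1 overlapped between the groups, so the markers given singly do not stand for the whole list. The 5 seed markers summed to at most 0.855 CPM in any plant, with CRU3 and SESA1 at 0 throughout. The part of these cells in the BFN1 values was not tested.

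Compared per kb of the longest annotated transcript, and as levels averaged over all 6 plants, NYC1 was the highest member at 63.9 CPM per kb. PAO (43.5) and PPH (42.3) followed, and their ranges over the plants overlapped each other but not that of NYC1. SAG21 (28.5) ranged from 15.4 to 56.1 CPM per kb and overlapped PPH above it and SGR1 (14.0) below it. SAG12 (6.31), which rests on plant 23, SAG13 (5.20), SGR2 (4.03), SWEET15 (2.02) and BFN1 (1.25) followed, with ranges that overlapped from each to the next. The order differed between the groups: PPH (45.4) was above PAO (44.8) in the wild-type mean and SAG12 (12.1) level with SGR1 (12.1), while in the memory mean BFN1 (1.96) was above SWEET15 (1.60) and SAG12 (0.517) was last.

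Of 20 regulators known to act on these genes or on senescence, 19 were tested, 1 fell, 1 rose and 17 did not pass. The median log2 fold change was -0.38, and 14 of the 19 were negative. Over all 16928 tested genes the median was 0.0079, 8267 were negative and 1.82% were called. With 1 plant left out, the list median ranged from -0.47 (without memory plant 32) to -0.19 (without wild-type plant 24). ANAC019, a stress NAC factor (AT1G52890), fell from 21.3 ± 5.80 to 7.27 ± 2.51 CPM (SD, n = 3 each), and the log2 fold change came to -1.54 (SE 0.285; adjusted p = 0.0182 in edgeR). SOC1, a flowering factor described as a repressor of chlorophyll breakdown genes (AT2G45660), rose from 51.4 ± 7.85 to 84.2 ± 5.10 CPM, with log2 fold change 0.71 (SE 0.147; adjusted p = 0.0301 in edgeR). ANAC019 lost its call without plant 31, 32 or 33 (adjusted p = 0.0795, 0.0954 and 0.109), and SOC1 without any plant but 23 (adjusted p = 0.0905 to 0.172).

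ORE1, a central activator of leaf senescence (AT5G39610), had 12.2, 12.0 and 25.6 CPM in wild-type plants and 7.48, 6.84 and 5.32 CPM in memory plants. Its groups did not overlap, but it did not pass (log2 fold change -1.34, SE 0.323, edgeR adjusted p = 0.0639). It passed without plant 23 (edgeR adjusted p = 0.00455) and with DESeq2 (adjusted p = 0.0170), and without plant 24 it stood at -0.88 (edgeR adjusted p = 0.174). PIF4, named after its values were seen, likewise missed the threshold with all 6 plants (log2 fold change -0.77, edgeR adjusted p = 0.0673). PIF4 also passed without plant 23 (edgeR adjusted p = 0.0159) and with DESeq2 (adjusted p = 0.00864). Of the 19 tested regulators 8 were highest in plant 24 and 8 in plant 23. Those highest in plant 24 included, named after their values were seen, WRKY53, which had 22.3, 16.4 and 82.5 CPM in wild-type plants and 11.8, 11.9 and 11.8 CPM in memory plants (log2 fold change -1.78, edgeR adjusted p = 0.407; -0.71 without plant 24).

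**Figure D4:**
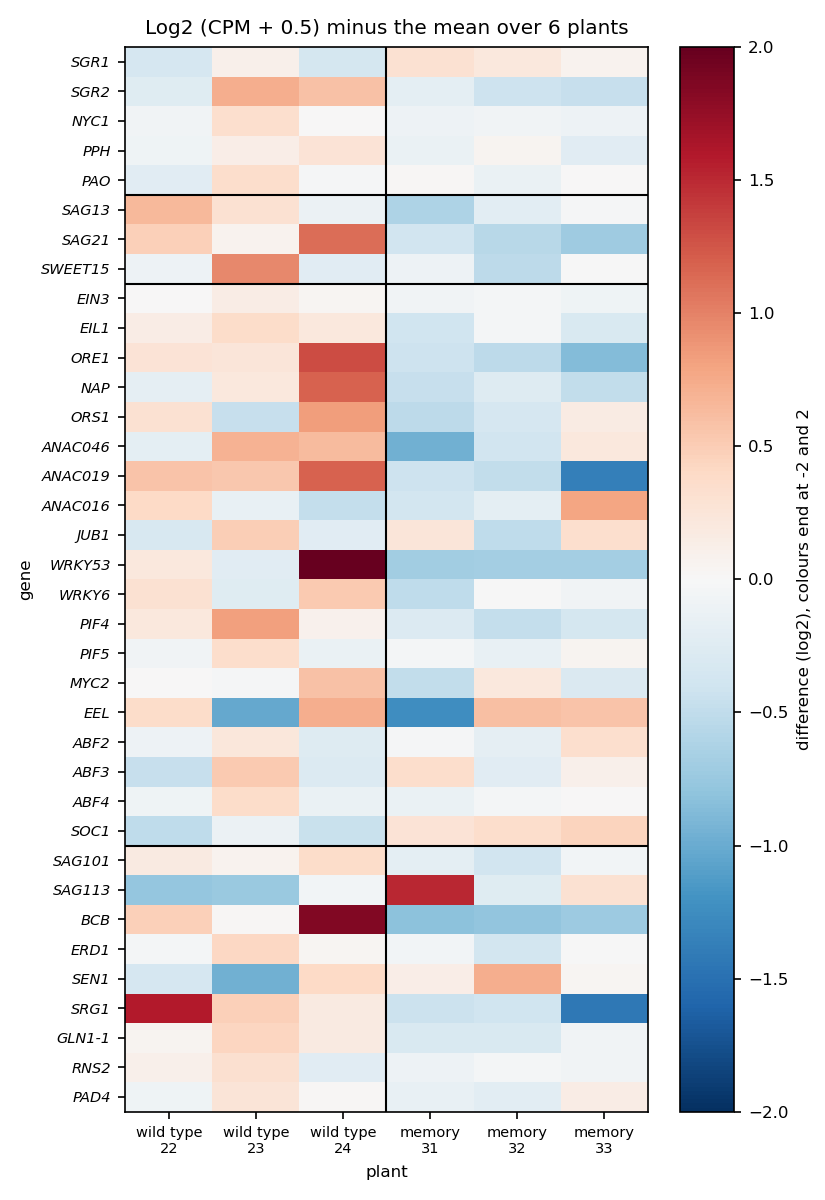
Log2 (CPM + 0.5) of the 8 tested members (upper blocks), 19 regulators and 9 other senescence-associated genes in each plant, minus the mean of each gene over the 6 plants. SAG21, ORE1, ANAC019, WRKY53 and BCB are highest in wild-type plant 24, and SGR2, NYC1, PAO and SWEET15 in plant 23.

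Of 11 other senescence-associated genes 9 were tested and none passed with edgeR, with a median log2 fold change of -0.29. At an unadjusted edgeR p under 0.05 stood 5 of them, beside 12.8% of all genes, 4 with negative values and 1, SAG113, with a positive value. SAG113, a protein phosphatase gene named after its values were seen, had 4.32, 4.45 and 7.48 CPM in wild-type plants and 22.9, 6.44 and 9.71 CPM in memory plants, so the groups overlapped. Its log2 fold change was 1.25 (edgeR adjusted p = 0.292), and 0.56 without plant 31. SRG1, an oxygenase gene, had the smallest p, with 11.0, 4.83 and 3.83 CPM in wild-type plants and 2.35, 2.41 and 0.925 CPM in memory plants (log2 fold change -1.76, SE 0.504, edgeR adjusted p = 0.122), and it passed without plant 23 (adjusted p = 0.0224), while without plant 22, the highest, it stood at -1.17 (adjusted p = 0.436). BCB, a blue copper protein gene also known as SAG14 and named after its values were seen, had 32.6, 23.8 and 85.8 CPM in wild-type plants and 13.0, 13.3 and 13.9 CPM in memory plants. It was called lower by DESeq2 (adjusted p = 8.93e-05) and not by edgeR with all 6 plants (log2 fold change -1.83, adjusted p = 0.226). Without plant 24 it stood at -1.07 and was called lower by edgeR (adjusted p = 0.0210).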

How the data were processed

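Libraries were made with TruSeq RNA v2 and sequenced as 150-bp reads, per the labels' protocols. The authors deposited raw counts, whole numbers of reads for each locus, in 1 file per plant; TAIR10 and DESeq2 are named in the submitters' processing notes. The aligner, counting program, multi-mapping rule and strand setting are not named in the labels or files used here, so reads of close copies or overlapping genes may be shared.

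The test used edgeR 4.0.16 under R 4.3.3: filterByExpr (minimum count 10, minimum total 15), TMM scaling, robust glmQLFit and two-sided glmQLFTest, with Benjamini-Hochberg adjustment over all 16928 tested genes and a threshold of 0.05. SE was derived from the log2 fold change and its F statistic. The alternatives used other scalings, no filter, no robust estimation, a threshold of 0.01, DESeq2 1.42.0, limma 3.58.1 voom, and leaving out each plant. The procedure was tested on simulated data with 200 changed genes among 16928. There edgeR recovered 69% of the 2-fold and 92% of the 4-fold changes, with 16 false calls. Replicate libraries of a group differed by more than sampling noise (chi-square per degree of freedom at least 3.12). Labels describe individual plants.

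Positions and symbols are from TAIR10.1, which matched 32835 loci; the files hold no coordinates. The members and gene lists were chosen with earlier results of these data known. Genes named by rule are the members, the called genes of each list (or, with none, the gene with the smallest p) and the 5 genes nearest to SAG21 and to SGR1. Other genes given with values are marked as named after their values were seen. Exceptions are MSH1, cell type markers, genes that overlap a named gene, and AT3G53770, which had no read.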

Additional observations from a re-analysis of the deposited data

How the results depend on the processing

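The count of members called lower, 1 (SAG21), went to 0 with library totals, upper-quartile scaling, limma voom or a threshold of 0.01, and ranged from 0 to 1 when a plant was left out; the cause was not tested. The count called higher was 0 in every fit run. Over all genes, 232 were lower and 76 higher. DESeq2 gave 404 lower, edgeR without a low-count filter 120 higher, and a threshold of 0.01 gave 81 lower and 17 higher; leaving out a plant gave 24 to 562 lower and 6 to 457 higher, with both highest values without plant 23. Of the calls 24.7% were higher, and 36.2% with library totals. In the related lists 4 genes were lower and 2 higher; DESeq2 gave 7 lower, a threshold of 0.01 gave 1 higher, and leaving out a plant gave 0 to 7 in each direction. Of 266 values for 19 named genes, 231 kept direction and side of the threshold, 30 lost the call, 4 gained one and 1 reversed, PAO at 0.092 without plant 23 (-0.21 to 0.092 over the 6 plants left out in turn). Genes not called in the main fit count as kept while they stay uncalled. The called genes kept their calls in 5 (SAG21) to 12 (PORB) of 14 settings. No paired analysis was possible because wild-type and memory plants carry different numbers. BFN1, SGR2 and SWEET15 rest on few reads and SAG12 on the reads of 1 plant, which limits what could be detected.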

Other observations

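Among 12 papain-like protease genes, the family of SAG12, 9 were tested, 1 fell, 1 rose and 7 did not pass. RD19A, which encodes a vacuolar protease (AT4G39090), had 649.8, 778.1 and 802.2 CPM in wild-type plants and 367.6, 415.4 and 357.2 CPM in memory plants, a log2 fold change of -0.97 (SE 0.154; adjusted p = 0.00846 in edgeR). AT2G27420, a cysteine protease gene, had 1.80, 2.51 and 1.39 CPM in wild-type plants and 9.19, 10.1 and 8.32 CPM in memory plants, a log2 fold change of 2.27 (SE 0.337; adjusted p = 0.00597 in edgeR). The groups did not overlap for either gene. Without memory plant 31, 32 or 33 neither passed (adjusted p = 0.103, 0.0508 and 0.0808 for RD19A and 0.0574, 0.0572 and 0.0510 for AT2G27420). The 7 others had adjusted p-values of at least 0.831.

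SAG13 lies in a tandem array of short-chain reductase genes on chromosome 2. Of 11 other genes of the array 7 were tested and none passed with edgeR or DESeq2. At an unadjusted edgeR p under 0.05 stood 2 of them, beside 12.8% of all genes. Their median log2 fold change was 0.25 and 6 of 7 were positive, beside 8661 of all 16928 tested genes, while SAG13 stood at -0.61. The smallest p was that of AT2G29320, with 29.3, 38.9 and 27.3 CPM in wild-type plants and 36.5, 47.1 and 43.9 CPM in memory plants (log2 fold change 0.42, SE 0.172, edgeR adjusted p = 0.325). Without plant 23 AT2G29320 and, named after its values were seen, AT2G29360 were called higher (edgeR adjusted p = 0.0309 and 0.0242). In that fit 5.93% of all genes were called. Without plant 24 these 2 genes stood at 0.32 and 0.24 (edgeR adjusted p = 0.526 and 0.579). Reads may be split among these related copies.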
